A study of Mus musculus with 72 samples.

Results

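The 38 genes described here are Trp53, which encodes the transcription factor p53, its inhibitors Mdm2 and Mdm4, and 35 genes known as p53 targets, sorted by role. These were 9 cell cycle arrest genes, 15 cell death genes, 5 DNA repair genes, 4 metabolic and stress genes and 2 cell surface genes, besides the 3 core genes. A gene entered the analysis through its brightest probe set that carries a single gene symbol, which gave 35 of the 38 members among 19938 genes in all. Trp53 and Bax were not analysed here, and the only probe set of Cdkn1a, the p21 gene, carries more than 1 symbol and was left out by that rule. The statements below are therefore about 35 target and regulator transcripts. Trp53 mRNA was not analysed, and p53 protein was not measured.

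The samples were marrow RNA from mouse models of acute promyelocytic leukaemia (APL), in which a chromosomal fusion alters the retinoic acid receptor RARA, on 72 Affymetrix Mouse Gene 1.0 ST arrays. In the transgenic model (labelled transgenics, background WT), marrow carried PML/RARA, with 4 untreated and 8 retinoic acid (RA) arrays at 6 h and as many at 12 h, or PLZF/RARA, with 2 untreated and 4 RA arrays per time. In the model labelled viral transduction, all marrow carried PML/RARA on a background labelled WT or pml-/-, and per background there were 4 untreated and 8 RA arrays at 6 h, against 2 and 4 at 12 h. Every group, the untreated ones included, thus carried a RARA fusion. The sources used here do not give strain, age, RA dose, the promoter that drives the transgenes, the cells that were transduced, or whether the arrays within a group are different mice, so p-values measure the spread between these arrays only.

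In normal cells p53 is kept low by Mdm2, a ubiquitin ligase that is itself a p53 target, and by its relative Mdm4, so a rise of Mdm2 mRNA is a usual readout of active p53. Stabilised p53 binds DNA as a tetramer and raises genes that halt the cell cycle, start apoptosis, repair DNA or restrain growth signalling. PML protein gathers in nuclear bodies, where p53 and its modifying enzymes meet, and PML/RARA disperses these bodies while RA lets them form again. Several of the targets, Gadd45a, Ddit4, Sesn2 and Plk3 among them, also respond to stress through other transcription factors.

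Array medians lay between 6.56 and 6.81 on the log2 scale, and the transgenic and viral arrays shared no batch, so levels were compared only within a model. Cyp26a1, the RA-degrading enzyme that RA itself induces, rose in all 8 RA comparisons, by 3.36 to 5.76 on the log2 scale. Of the 5 promyelocyte markers, Mpo, Elane and Ctsg lay at percentiles of 99.8 to 99.9 among all genes by mean level, Prtn3 at 98.7 and Ms4a3 at 94.5. These are means over all arrays, and the level of Ms4a3 differed widely between the viral backgrounds, as given below. Erythroid markers (6 of 9 measured) were higher in transgenic PML/RARA marrow, where their mean level ran from 7.80 to 10.42 per array, than in transgenic PLZF/RARA marrow (6.01 to 6.75). The probe set of Pml was not called between the viral backgrounds (untreated, labelled WT minus labelled pml-/-, 0.04 ± 0.13, adjusted p = 0.916), and rose with RA at 6 h in the arrays labelled pml-/- (0.70 ± 0.13). Where its probes lie relative to the deleted part is not known, and the fusion itself carries PML sequence, so this probe set does not check the label, and these arrays are called "labelled pml-/-" throughout. In these bulk samples, fewer cells of a type and less RNA per cell cannot be told apart.

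RA changed a mixed subset of the p53 pathway genes. A difference is the mean log2 level with RA minus the untreated mean at the same time, ± its SE from a limma fit. A gene is called where the p adjusted over all 19938 genes by Benjamini-Hochberg is below 0.05. Whether RA and untreated arrays overlapped is given below only to describe the arrays of a gene. The share of all genes without overlap is not given, and groups with 2 untreated arrays separate more easily by chance. Of the 35 members, 23 were called in at least 1 of the 8 RA comparisons and 12 in none, and no member rose in one comparison and fell in another. The share of all genes called in at least 1 of the 8, or in all 8, is not given here. These pooled counts therefore do not show whether members were called more often than other genes. Transgenic PML/RARA marrow had the most member calls, with 10 higher and 3 lower at 6 h, where 14.3% of all genes were called, and 12 higher and 2 lower at 12 h, where 21.6% were. In transgenic PLZF/RARA marrow 2 were higher and 2 lower at 6 h (2.20% of all genes called), and 5 higher and 1 lower at 12 h (4.03%). The viral leukaemia labelled WT had 8 higher and 1 lower at 6 h (9.88%), and 3 higher and 2 lower at 12 h (6.10%). That labelled pml-/- had 9 higher and 1 lower at 6 h (11.4%) and 5 higher and 0 lower at 12 h (6.05%; by limma 12 members had an unadjusted p below 0.05 there). The members' median difference stayed between 0.00 and 0.09 in all 8 comparisons, and that of all genes between -0.05 and 0.06. Asking for a 1.5-fold change as well left 7 and 8 members with transgenic PML/RARA at 6 h and 12 h (4.12% and 6.09% of all genes), 2 with PLZF/RARA at 12 h (2.42%), 4 and 3 with the viral WT label (3.56% and 3.69%) and 6 and 3 with the pml-/- label (3.94% and 3.77%). Both PLZF/RARA comparisons and both viral ones at 12 h rest on 2 untreated arrays each, and leaving out 1 of them moved several calls, as given gene by gene.

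**Figure D1:**
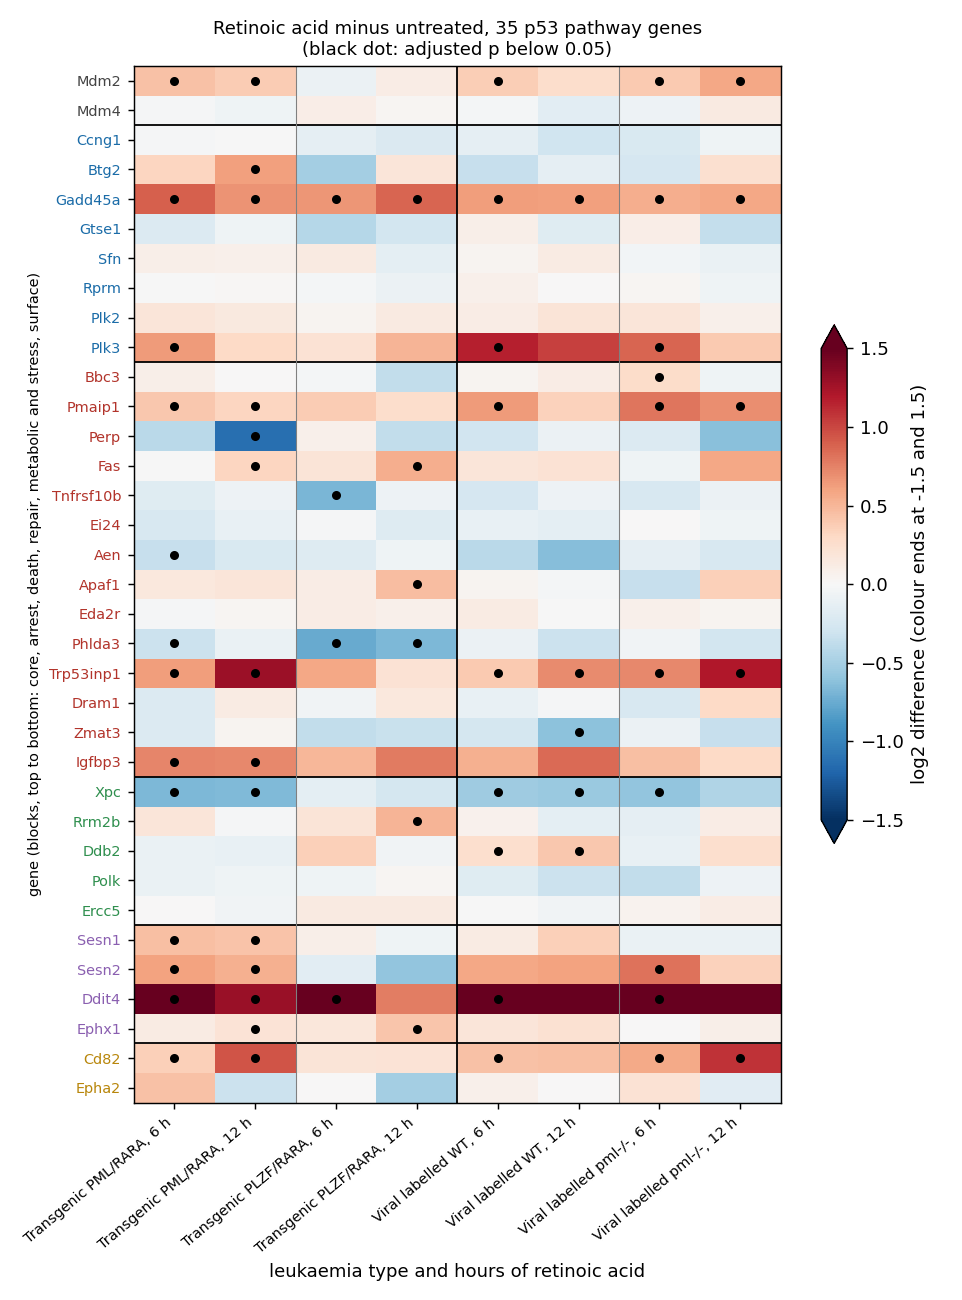
Colour gives the log2 difference, RA minus untreated, of the 35 members (rows, in blocks by role) in the 8 comparisons (columns), with a black dot where the adjusted p is below 0.05. The Gadd45a row carries a dot in all 8 columns, and the Ddit4 row has the darkest red. The values of the Xpc, Phlda3, Tnfrsf10b, Aen and Ccng1 rows are below 0 in every column.

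Among the core genes, Mdm2 rose in PML/RARA marrow of both models and was not called in PLZF/RARA marrow. At 6 h in transgenic PML/RARA marrow, its untreated levels were 9.56, 9.55, 9.24 and 9.23, and the 8 RA arrays ran from 9.57 over a median of 9.80 to 9.90. The groups did not overlap, and the difference was 0.44 ± 0.08 (1.35-fold, adjusted p = 5.96e-05). At 12 h the untreated arrays gave 9.38, 9.43, 9.42 and 9.15 and the RA arrays 9.53 to 9.88 (median 9.73), again without overlap, for a difference of 0.38 ± 0.07 (adjusted p = 0.000149). Within batch 1 and batch 2 alone the 6 h difference was 0.53 and 0.30. PLZF/RARA marrow showed no such separation: untreated arrays gave 9.72 and 9.50 and RA arrays 9.44, 9.58, 9.43 and 9.65 at 6 h, a difference of -0.08 ± 0.10, and at 12 h it was 0.11 ± 0.10. In the viral leukaemias Mdm2 rose at 6 h by 0.37 ± 0.08 in arrays labelled WT and by 0.40 ± 0.08 in arrays labelled pml-/-, and at 12 h by 0.58 ± 0.12 in the latter, where untreated arrays gave 9.25 and 9.35 and RA arrays 9.66, 10.25, 9.71 and 9.92. With the WT label the 12 h difference was 0.27 ± 0.12 (adjusted p = 0.201). Mdm4, the other p53 inhibitor, was called in no RA comparison, with differences from -0.16 to 0.13.

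The upstream windows of 3 members that rose hold a match to the p53 half-site, a motif of 10 letters with purines, a fixed C and G around a pair of A or T, and pyrimidines, searched on both strands. RefSeq windows of 300 bases (250 before to 50 after a start, GRCm38.p6) were at hand for 27 of the 35 genes, with 37 windows, and 9 windows of 8 genes held such a match, against 8.356% of 32851 windows of this length. The windows of Gadd45a (chr6:67037408-67037657, minus strand), Mdm2 (chr10:117710759-117711008, minus strand) and Sesn1 (chr10:41887189-41887438, plus strand) are shown because these genes rose with RA and the match lies wholly upstream of the start. Each gives the 250 bases before the start, 5′ to 3′ along the gene, with the match in capitals.
Gadd45a: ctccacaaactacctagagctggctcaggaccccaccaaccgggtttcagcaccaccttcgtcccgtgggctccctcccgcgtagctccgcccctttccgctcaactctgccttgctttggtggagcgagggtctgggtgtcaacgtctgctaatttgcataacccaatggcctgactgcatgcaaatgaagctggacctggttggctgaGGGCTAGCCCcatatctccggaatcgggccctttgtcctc
Mdm2: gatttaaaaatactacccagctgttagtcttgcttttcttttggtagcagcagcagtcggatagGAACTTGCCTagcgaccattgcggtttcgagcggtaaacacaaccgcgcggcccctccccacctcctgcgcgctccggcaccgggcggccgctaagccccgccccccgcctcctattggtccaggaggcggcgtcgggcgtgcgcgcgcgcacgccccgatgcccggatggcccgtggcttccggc
Sesn1: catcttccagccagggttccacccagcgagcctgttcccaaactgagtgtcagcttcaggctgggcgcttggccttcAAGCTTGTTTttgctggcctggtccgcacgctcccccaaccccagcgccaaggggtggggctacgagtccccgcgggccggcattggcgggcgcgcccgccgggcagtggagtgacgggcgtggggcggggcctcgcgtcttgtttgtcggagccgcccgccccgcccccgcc
Counted from the start, with negative numbers upstream, the match begins at -40 in Gadd45a, at -186 in Mdm2 and at -173 in Sesn1. For Sesn1 this is window 2 of the gene, and no other window of Sesn1 held a match. The other 5 genes with a match were Ccng1, Ei24, Polk, Gtse1 and Aen, of which 4 were called in no RA comparison and Aen fell in one. Cd82, Ddit4, Plk3, Sesn2, Ephx1, Fas, Igfbp3, Apaf1, Bbc3 and Btg2 also rose, and their windows held no match. Whether members that rose hold the motif more often than others was not tested. The nuclear receptor half-site AGGTCA, searched on both strands, occurred in 5 member windows (Mdm4, Btg2, Sfn, Epha2 and Polk), against 16.26% of all windows. TGATGNAA, the core of the site bound by the stress factor ATF4 with C/EBP, occurred in 2 (Sfn and Polk), against 3.969%. A match is a description of letters, not a binding site, and p53 is known to act on several of these genes from elements inside introns, outside these windows.

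Gadd45a was the one member called in all 8 RA comparisons. It encodes a small stress protein that inhibits the cyclin B kinase and joins DNA repair. At 6 h the untreated arrays of transgenic PML/RARA marrow gave 7.91, 7.64, 7.85 and 7.46 and RA arrays 8.16 to 9.03 (median 8.51), a difference of 0.90 ± 0.12 (1.86-fold, adjusted p = 5.56e-07). At 12 h untreated arrays gave 7.51, 7.62, 7.77 and 7.55 against 8.07 to 8.51 (median 8.31), a difference of 0.68 ± 0.11 (adjusted p = 1.85e-05). Gadd45a also rose in PLZF/RARA marrow, from 7.13 and 7.11 to 7.77, 7.96, 7.59 and 7.79 at 6 h (0.66 ± 0.16, adjusted p = 0.0199), and from 7.15 and 7.44 to 8.03, 8.53, 8.23 and 7.87 at 12 h (0.87 ± 0.16, adjusted p = 0.000611). RA and untreated arrays of Gadd45a overlapped in none of these 4 comparisons. In the viral leukaemias the differences were 0.62 ± 0.12 at 6 h and 0.62 ± 0.17 at 12 h with the WT label, and 0.54 ± 0.12 and 0.58 ± 0.17 with the pml-/- label. The 6 h values held the same direction within each batch, at 0.37 and 0.87 with the WT label and 0.46 and 0.62 with the pml-/- label in batches 3 and 4. Leaving out 1 array ended Gadd45a calls in the 4 comparisons with 2 untreated arrays and in none of the other 4. With only the groups compared in the fit, the calls at 6 h with PLZF/RARA and at 12 h with the viral WT and pml-/- labels also ended (adjusted p = 0.143, 0.0886 and 0.139), so Gadd45a was called in 5 of 8 comparisons there. Among the other members, that fit also ended the PLZF/RARA 12 h calls of Apaf1, Ephx1, Fas, Phlda3 and Rrm2b and the PML/RARA 12 h calls of Ephx1 and Pmaip1. In the viral leukaemias it ended those of Trp53inp1 and Xpc (WT, 12 h), Ddb2 (WT, 6 h), Mdm2 (pml-/-, 12 h) and Bbc3 (pml-/-, 6 h), and between untreated fusions that of Ephx1. The adjusted p of these calls was then 0.0573 to 0.168, with the direction kept. Without untreated array 1 or 2 the PLZF/RARA 6 h difference stayed at 0.67 and 0.65 with adjusted p = 0.251 and 0.189, and without untreated array 1 the 12 h one was 0.72 (adjusted p = 0.0525). In the viral 12 h groups the call ended without untreated array 1 or 2 or RA array 3 or 4 with the WT label (0.52 to 0.72, adjusted p up to 0.340), and without untreated array 1 or 2 or RA array 2 or 4 with the pml-/- label (0.44 to 0.72, adjusted p up to 0.512).

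Of the other 7 arrest genes, only Plk3 and Btg2 were called in any RA comparison. Of all genes, 14.3%, 9.88% and 11.4% were called at 6 h with transgenic PML/RARA and the viral WT and pml-/- labels, where Plk3 was called. At 12 h with transgenic PML/RARA, where Btg2 was called, it was 21.6%. Plk3, a polo-like kinase of the stress response, rose at 6 h in PML/RARA marrow of all 3 kinds. With the viral WT label untreated arrays gave 7.28, 7.04, 7.78 and 7.06 and RA arrays 7.91 to 9.18 (median 8.28), a difference of 1.16 ± 0.27 (2.24-fold, adjusted p = 0.0038). For the pml-/- label it was 0.88 ± 0.27, from 6.38, 6.42, 6.49 and 6.42 to 6.81 to 7.82 (median 7.39), without overlap. For transgenic PML/RARA it was 0.63 ± 0.18, and the groups overlapped, with untreated arrays at 7.15 to 7.47 and RA arrays at 7.32 to 8.69. The call with the pml-/- label (adjusted p = 0.0295) ended without any 1 of the 4 untreated arrays or RA array 4 or 5 (0.81 to 0.90, adjusted p of 0.0511 to 0.0819), and the transgenic one without untreated array 4 (0.60, adjusted p = 0.0734). Btg2, an antiproliferative gene that recruits the mRNA deadenylation machinery, rose in transgenic PML/RARA marrow at 12 h, from 9.03, 8.94, 9.09 and 8.91 to 9.31 to 9.92 (median 9.61), by 0.61 ± 0.15 (adjusted p = 0.00215), with no overlap. Ccng1, a cyclin that feeds back on Mdm2, lay below 0 in all 8 comparisons, from -0.29 to -0.01, and was called in none. Gtse1 (a p53-binding G2 protein, -0.43 to 0.10), Sfn (14-3-3 sigma, -0.15 to 0.14), Rprm (Reprimo, -0.09 to 0.08) and Plk2 (0.04 to 0.19) were not called either.

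Of the 14 death genes measured, 3 rose and 2 fell at 6 h and 4 rose and 1 fell at 12 h in transgenic PML/RARA marrow (14.3% and 21.6% of all genes called), and Trp53inp1 and Pmaip1 rose most often. Trp53inp1, which assists p53 in apoptosis and autophagy, was called in 6 comparisons, all those with PML/RARA. Untreated arrays of transgenic PML/RARA marrow gave 10.31, 9.73, 9.90 and 9.72 at 6 h and RA arrays 10.40 to 10.77 (median 10.50), a difference of 0.62 ± 0.16. At 12 h it was 1.28 ± 0.16 (2.44-fold, adjusted p = 1.01e-07), from 9.49, 9.98, 9.24 and 9.34 to between 10.53 and 10.92 (median 10.85). Neither pair of groups overlapped. With the pml-/- label the 12 h rise was 1.20 ± 0.17, from 9.45 and 9.68 to 10.48, 11.19, 10.54 and 10.86, after 0.72 ± 0.12 at 6 h. With the viral WT label it was 0.39 ± 0.12 (adjusted p = 0.0296) and 0.71 ± 0.17 (adjusted p = 0.00764). PLZF/RARA marrow gave 0.58 ± 0.22 (adjusted p = 0.197) and 0.22 ± 0.22 (adjusted p = 0.702), with untreated arrays spread from 9.58 to 10.65 at 12 h. Leaving out untreated array 4 ended the transgenic 6 h call (0.54, adjusted p = 0.0706), untreated array 1 or 2 the viral WT 12 h call (0.68 and 0.74, adjusted p = 0.124 and 0.0909), and untreated array 2, 3 or 4 or RA array 1, 2 or 4 the viral WT 6 h call (0.33 to 0.42, adjusted p up to 0.148).

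Pmaip1 encodes NOXA, a BH3-only protein that frees the apoptotic machinery by binding MCL1. It rose with the pml-/- label from 7.46, 7.22, 7.15 and 7.03 to between 7.55 and 8.64 (median 8.03) at 6 h, by 0.80 ± 0.11 (1.74-fold, adjusted p = 3.23e-06). At 12 h it went from 7.11 and 6.97 to 7.58, 8.0, 7.66 and 7.72, by 0.70 ± 0.15. With the viral WT label untreated arrays gave 7.79, 7.57, 7.58 and 7.63 at 6 h and RA arrays 8.13 to 8.49 (median 8.26), a difference of 0.64 ± 0.11 (adjusted p = 0.000115). None of these 3 pairs overlapped, and within batches 3 and 4 the 6 h difference was 0.79 and 0.82 with the pml-/- label and 0.66 and 0.62 with the WT label. The rise was smaller in transgenic PML/RARA marrow, 0.40 ± 0.12 at 6 h and 0.32 ± 0.12 at 12 h. The 6 h call ended without untreated array 4 (0.35, adjusted p = 0.137), the 12 h call without any 1 of untreated arrays 1, 2 and 4 and RA arrays 6, 7 and 8 (0.22 to 0.35, adjusted p up to 0.246), and the pml-/- 12 h call without untreated array 2 (0.63, adjusted p = 0.125). In PLZF/RARA marrow the differences were 0.39 ± 0.16 and 0.26 ± 0.16, and were not called. Bbc3, which encodes PUMA, the other BH3-only protein of the list, was called in 1 comparison, at 6 h with the pml-/- label, by 0.27 ± 0.09 (adjusted p = 0.0425). That call ended without any 1 of untreated arrays 1, 2 and 3 and RA arrays 3, 4, 5 and 7 (0.22 to 0.28, adjusted p up to 0.184).

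**Figure D2:**
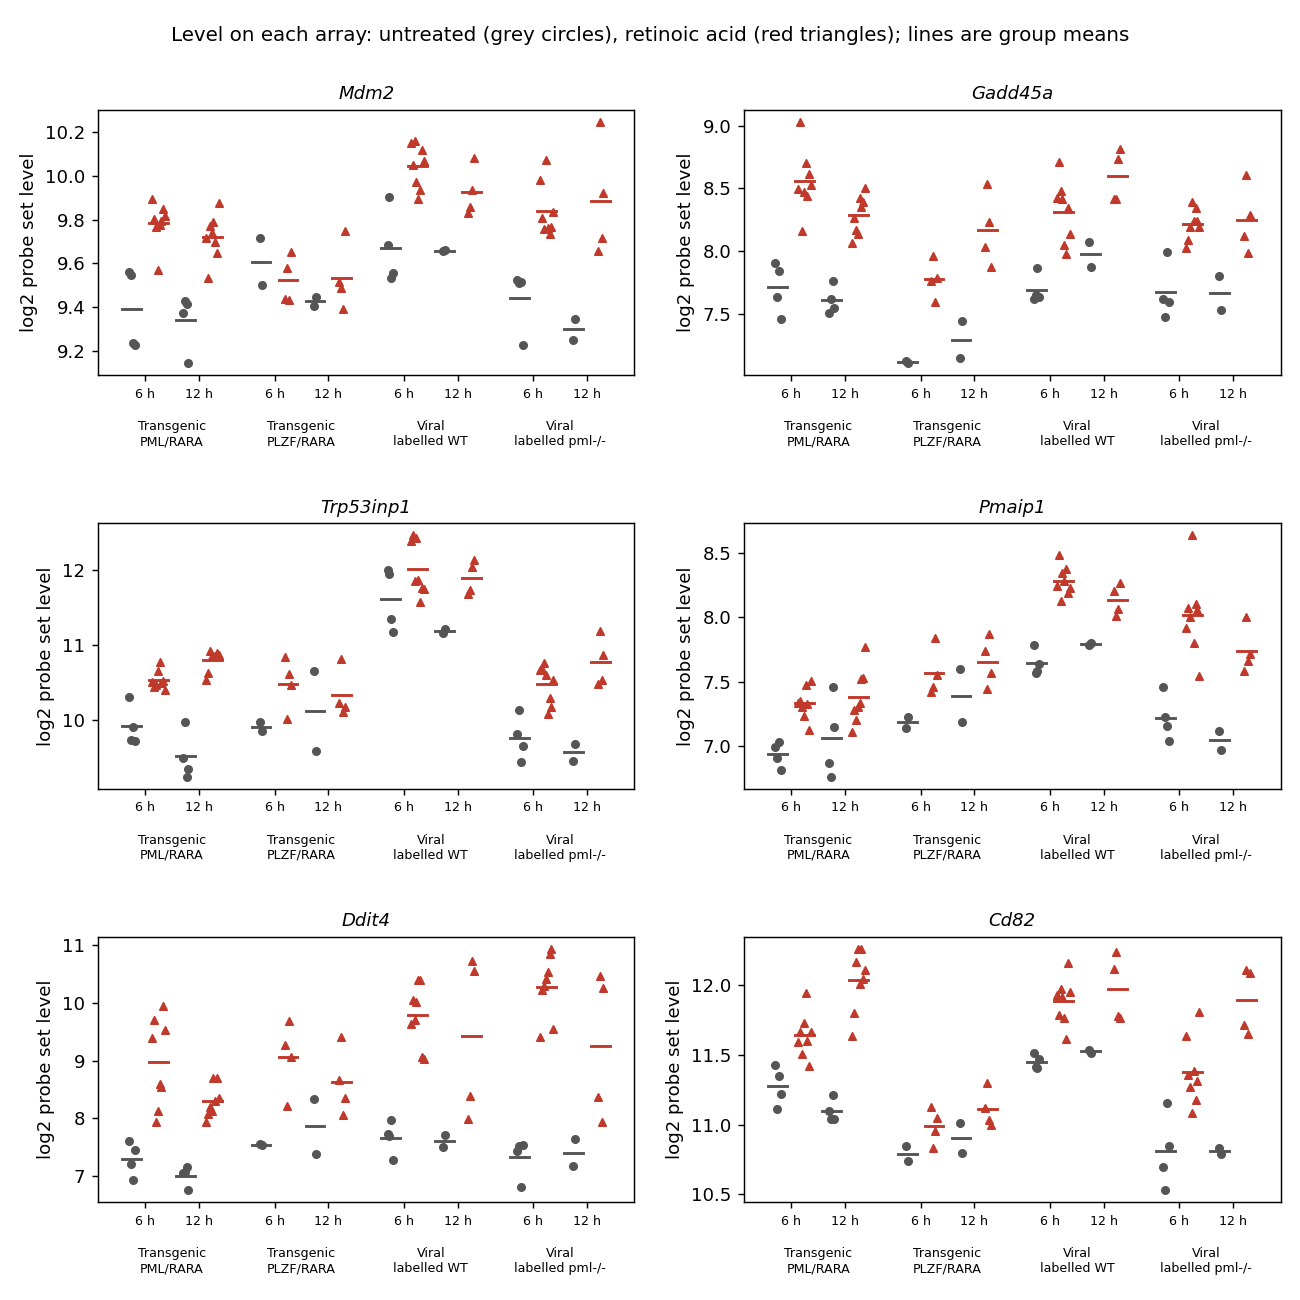
Each point is 1 array's log2 probe set level (vertical axes, 1 panel per gene), grouped along the horizontal axis by leukaemia type and time, with untreated arrays as grey circles, RA arrays as red triangles and lines at the group means. Triangles of Gadd45a lie above the circles in every pair, while those of Mdm2 and Cd82 mix with or sit close to the circles in PLZF/RARA marrow.

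Receptor and apoptosome genes had fewer calls. Fas, the death receptor, rose at 12 h in both transgenic leukaemias: by 0.32 ± 0.10 with PML/RARA, where untreated arrays at 5.55 to 6.01 overlapped RA arrays at 5.81 to 6.25, and by 0.55 ± 0.15 with PLZF/RARA, from 5.87 and 5.70 to 6.22, 6.24, 6.57 and 6.30. Both calls were close to the threshold (adjusted p = 0.0247 and 0.0241). The first ended without untreated array 2 or 4 or RA array 3 (0.26 to 0.29, adjusted p up to 0.135) and the second without untreated array 1 or 2 or RA array 3 (0.46 to 0.64, adjusted p up to 0.293). Apaf1, the scaffold of the apoptosome, rose in PLZF/RARA marrow at 12 h from 10.41 and 10.30 to 10.74, 11.09, 10.68 and 10.75 (0.46 ± 0.13, adjusted p = 0.0261). Without untreated array 1 or 2 or RA array 2 the difference was 0.37 to 0.52 (adjusted p up to 0.265). Igfbp3, a secreted binder of insulin-like growth factors, had a positive difference in all 8 comparisons (0.30 to 0.85). It was called in transgenic PML/RARA marrow, at 0.74 ± 0.23 and 0.72 ± 0.22, where the groups overlapped. The 6 h call ended without untreated array 2 or 3 or RA array 2 (0.58 to 0.69, adjusted p up to 0.187), and the 12 h call without untreated array 3 or 4 (0.60 and 0.63, adjusted p = 0.0876 and 0.0761).

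Several death genes went the other way. Tnfrsf10b and Aen, like Phlda3, had negative differences in all 8 comparisons, though each was called in only 1. Phlda3, a p53 target that blocks AKT at the membrane, had a negative difference in all 8 comparisons and fell most in PLZF/RARA marrow. Untreated PLZF/RARA arrays gave 7.98 and 7.52 at 6 h and RA arrays 7.01, 7.05, 6.84 and 7.08, a difference of -0.75 ± 0.13 (adjusted p = 0.000553). At 12 h they gave 7.27 and 7.56 against 6.99, 6.75, 6.51 and 6.70, a difference of -0.68 ± 0.13 (adjusted p = 0.000916). In transgenic PML/RARA marrow it fell at 6 h (-0.32 ± 0.09, adjusted p = 0.0149), with untreated arrays at 7.0, 7.10, 7.01 and 7.0 and RA arrays at 6.57 to 7.0 (median 6.69). The PLZF/RARA calls ended without untreated array 1 at 6 h (-0.53, adjusted p = 0.194) and without untreated array 2 at 12 h (-0.53, adjusted p = 0.0891), and the PML/RARA call without untreated array 2 (-0.29, adjusted p = 0.0597). Tnfrsf10b, the TRAIL receptor, fell in PLZF/RARA marrow at 6 h, from 7.4 and 7.24 to 6.63, 6.73, 6.52 and 6.67, with a difference of -0.68 ± 0.14 (adjusted p = 0.00365; -0.61 and adjusted p = 0.187 without untreated array 1). With only the groups compared in the fit, the PLZF/RARA 6 h calls of Phlda3 and Tnfrsf10b ended (adjusted p = 0.143 and 0.0914). Aen, an apoptosis nuclease, fell in transgenic PML/RARA marrow at 6 h, from 8.07, 8.14, 8.24 and 8.10 to between 7.63 and 7.98 (median 7.78), with a difference of -0.34 ± 0.09 (adjusted p = 0.0103; -0.29 and adjusted p = 0.0896 without untreated array 3).

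Perp, a membrane protein of desmosomes and p53 apoptosis, fell in transgenic PML/RARA marrow at 12 h, by the widest margin among members that fell. Its untreated 12 h arrays were far apart, at 8.03, 7.98, 10.11 and 9.65, and the RA arrays ran from 6.97 over a median of 7.59 to 8.81. The groups overlapped, with a difference of -1.13 ± 0.28 (adjusted p = 0.00301). Without untreated array 3, the one at 10.11, it was -0.74 (adjusted p = 0.0595), and at 6 h it was -0.41 ± 0.29. Zmat3, an RNA-binding zinc finger protein, fell with the viral WT label at 12 h, from 7.29 and 7.09 to 6.63, 6.51, 6.6 and 6.55, with a difference of -0.62 ± 0.19 (adjusted p = 0.0416). That call ended without untreated array 1 or 2 or RA array 2, 3 or 4 (-0.72 to -0.52, adjusted p up to 0.392). Ei24 (an endoplasmic reticulum protein, -0.24 to 0.00), Eda2r (a TNF receptor family member, -0.02 to 0.13) and Dram1 (a lysosomal autophagy protein, -0.24 to 0.30) were called in no RA comparison.

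Of the 5 repair genes, 1 fell and 0 rose in transgenic PML/RARA marrow at each time, a share near the 14.3% and 21.6% of all genes called, and in both cases that was Xpc (by limma 1 of the 5 had an unadjusted p below 0.05 at each time). Xpc, the damage sensor of nucleotide excision repair and a known p53 target, had a negative difference in all 8 comparisons and fell in 5. Untreated arrays of transgenic PML/RARA marrow gave 9.40, 9.86, 9.48 and 9.64 at 6 h and RA arrays 8.68 to 9.19 (median 8.86), a difference of -0.67 ± 0.14 (adjusted p = 0.000536). At 12 h they gave 9.53, 9.94, 9.76 and 9.67 against 8.62 to 9.27 (median 9.12), a difference of -0.66 ± 0.13. With the pml-/- label it went from 9.50, 9.54, 9.84 and 9.81 to between 8.81 and 9.43 (median 9.07) at 6 h (-0.60 ± 0.10, adjusted p = 9.01e-05), and with the WT label from 8.84, 8.86, 8.94 and 9.13 to between 8.02 and 8.64 (-0.53 ± 0.10). RA arrays lay below all untreated ones in each of these 4 pairs. At 12 h the viral differences were -0.55 ± 0.14 with the WT label and -0.45 ± 0.14 (adjusted p = 0.0546) with the pml-/- label. The WT call ended without untreated array 1 or 2 or RA array 4 (-0.68 to -0.43, adjusted p up to 0.318). PLZF/RARA marrow gave -0.14 ± 0.19 and -0.27 ± 0.19, not called.

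Ddb2, the partner of Xpc in finding ultraviolet damage, rose with the viral WT label at both times, by 0.26 ± 0.08 (adjusted p = 0.0467) and 0.41 ± 0.12 (adjusted p = 0.0339). At 12 h it went from 7.89 and 7.84 to 8.22, 8.37, 8.26 and 8.24, without overlap. Both calls depended on single arrays: the first ended without any 1 of 7 arrays (untreated 1 and 4, RA 1, 2, 4, 7 and 8; 0.18 to 0.25, adjusted p up to 0.277), the second without untreated array 1 or 2 or RA array 2 or 4 (0.37 to 0.43, adjusted p up to 0.305). Rrm2b, the p53-induced subunit of ribonucleotide reductase, rose in PLZF/RARA marrow at 12 h from 7.73 and 7.23 to 8.07, 8.03, 7.95 and 7.91, by 0.51 ± 0.12 (adjusted p = 0.0104). The lower untreated array, array 2, carried much of that difference, which was 0.26 (adjusted p = 0.523) without it. Polk, a translesion polymerase (-0.37 to 0.03), and Ercc5, the XPG nuclease (-0.05 to 0.14), were not called.

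Of the 4 metabolic and stress genes, 3 rose at 6 h and 4 at 12 h in transgenic PML/RARA marrow (14.3% and 21.6% of all genes called), and the list held the largest RA difference of any member. Ddit4 encodes REDD1, which restrains the growth kinase mTORC1 and is also induced by hypoxia, glucocorticoids and ATF4. Untreated arrays labelled pml-/- gave 7.43, 7.53, 6.81 and 7.53 at 6 h and RA arrays 9.40 to 10.93 (median 10.35), a difference of 2.95 ± 0.44 (7.72-fold, adjusted p = 1.57e-05). With the viral WT label it was 2.12 ± 0.44, from 7.72, 7.69, 7.97 and 7.28 to between 9.03 and 10.40 (median 9.86). Transgenic PML/RARA marrow gave 7.61, 7.20, 6.93 and 7.45 untreated at 6 h and 7.94 to 9.94 (median 8.99) with RA, a difference of 1.81 ± 0.29 (3.51-fold, adjusted p = 1.97e-05), and at 12 h it was 1.29 ± 0.28. PLZF/RARA marrow also rose at 6 h, from 7.56 and 7.53 to 9.28, 8.22, 9.68 and 9.06, by 1.51 ± 0.40 (adjusted p = 0.0344). Thus Ddit4 rose at 6 h in all 4 leukaemia types, without overlap of the groups. The 12 h viral RA arrays lay far apart, at 8.0, 8.39, 10.73 and 10.56 with the WT label and 8.36, 10.46, 7.93 and 10.26 with the pml-/- label, and the differences of 1.81 ± 0.62 and 1.85 ± 0.62 were not called (adjusted p = 0.0845 and 0.0790). The PLZF/RARA call ended without untreated array 1 or 2 or RA array 1 or 3 (1.31 to 1.53, adjusted p up to 0.317), and with only the groups compared in the fit (adjusted p = 0.155).

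Sesn1 and Sesn2 encode sestrins, which inhibit mTORC1 under oxidative or amino acid stress. Sesn1 was called with RA in transgenic PML/RARA marrow and in no other leukaemia, from 9.29, 9.33, 9.26 and 9.10 to between 9.39 and 9.88 (median 9.61) at 6 h (0.45 ± 0.11, adjusted p = 0.00394), and from 9.24, 9.23, 9.31 and 9.15 to between 9.39 and 9.92 (median 9.67) at 12 h (0.43 ± 0.11, adjusted p = 0.0028). Neither pair overlapped. Sesn2 rose in the same marrow by 0.60 ± 0.13 at 6 h, from 7.84, 7.63, 7.77 and 7.76 to between 7.99 and 8.95 (median 8.24), and by 0.53 ± 0.13 at 12 h. With the pml-/- label it rose by 0.81 ± 0.22 at 6 h (adjusted p = 0.0112), with overlap, and the call ended without untreated array 1 (0.75, adjusted p = 0.0588). In PLZF/RARA marrow Sesn2 pointed down, from 8.92 and 9.20 to 8.41, 8.56, 8.34 and 8.54 at 12 h, a difference of -0.59 ± 0.18 that was not called (adjusted p = 0.0623). Ephx1, microsomal epoxide hydrolase, rose at 12 h in transgenic PML/RARA marrow by 0.20 ± 0.07 and in PLZF/RARA marrow by 0.41 ± 0.10, from 5.08 and 5.28 to 5.62, 5.63, 5.58 and 5.53. The first call ended without untreated array 3 or 4 or RA array 3, 4 or 6 (0.17 to 0.20, adjusted p up to 0.139), and the second without untreated array 1 (0.31, adjusted p = 0.220).

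**Figure D3:**
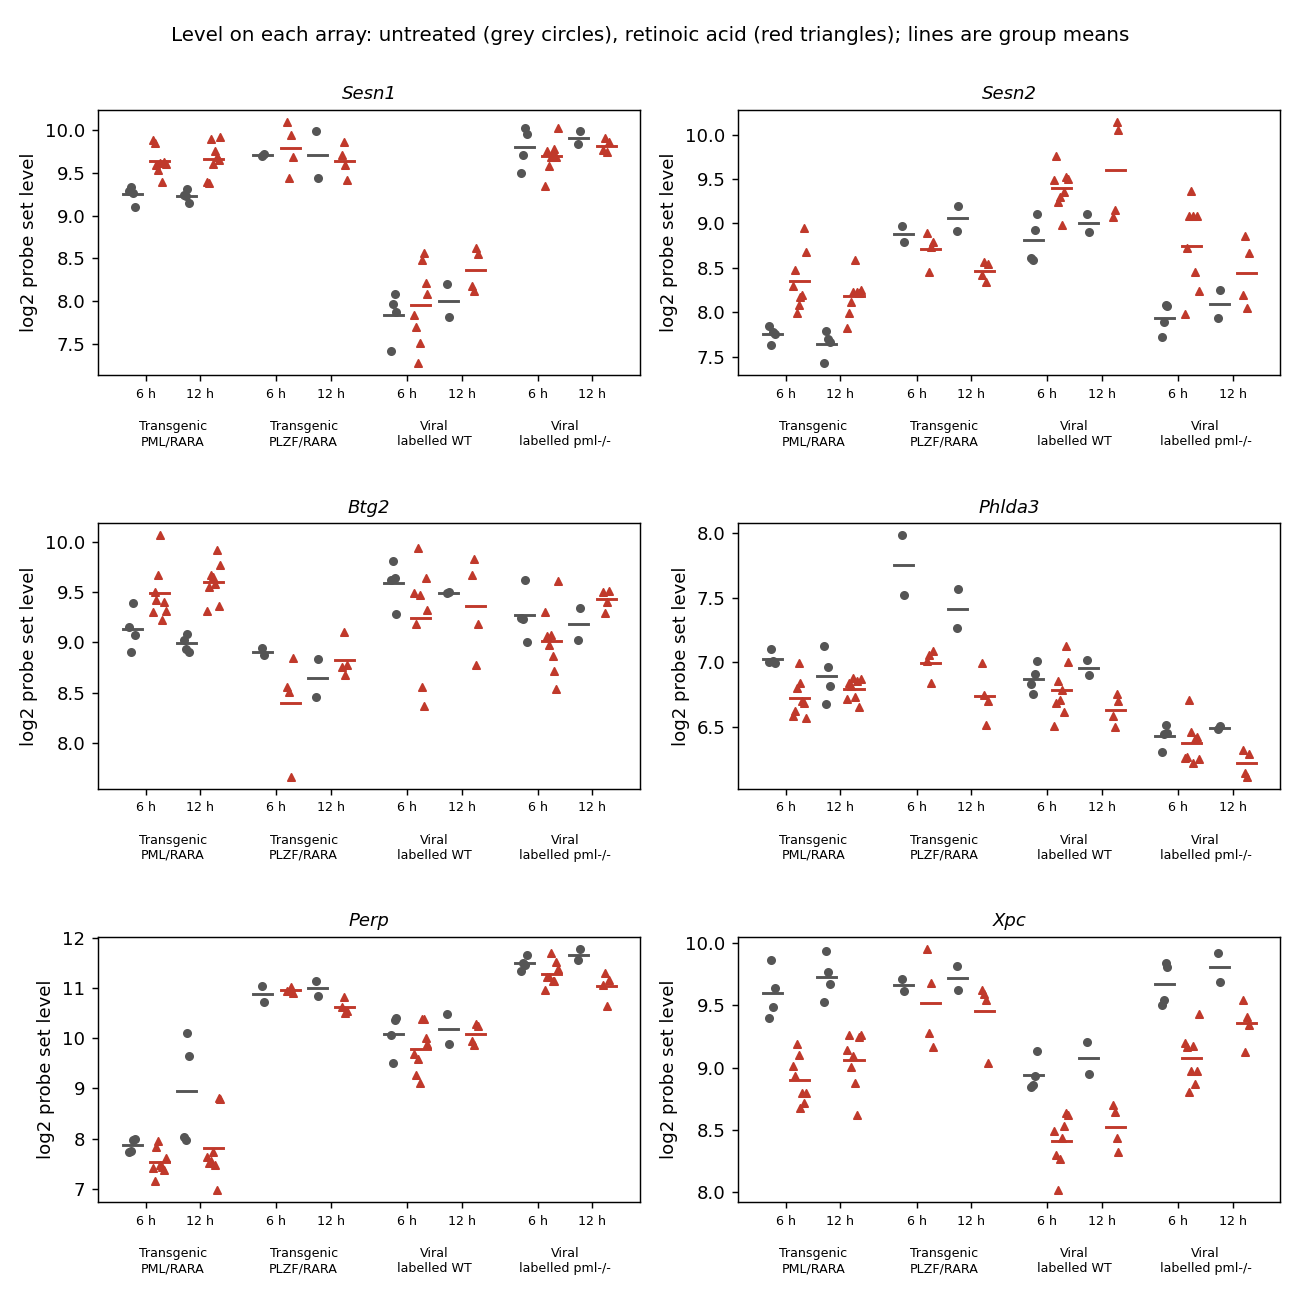
Each point is 1 array's log2 probe set level (vertical axes, 1 panel per gene) by leukaemia type and time, with untreated arrays as grey circles, RA arrays as red triangles and lines at the group means. Sesn1 sits near 8 with the viral WT label and near 10 with the pml-/- label whatever the treatment. Untreated Perp is lower in transgenic PML/RARA than in transgenic PLZF/RARA marrow, and Xpc triangles lie below the circles in the PML/RARA groups.

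Cd82 and Epha2 are the cell surface members. Cd82, the tetraspanin KAI1, rose in transgenic PML/RARA marrow at 12 h from 11.10, 11.04, 11.22 and 11.04 to between 11.64 and 12.26 (median 12.08), by 0.94 ± 0.10 (1.92-fold, adjusted p = 4.33e-09). With the pml-/- label at 12 h it went from 10.83 and 10.79 to 11.71, 12.11, 11.65 and 12.09, by 1.08 ± 0.17 (adjusted p = 6.36e-05). Neither pair overlapped, and both rises held whichever single array was left out. At 6 h the rises were smaller: 0.36 ± 0.10 in transgenic PML/RARA marrow, 0.44 ± 0.12 with the viral WT label and 0.57 ± 0.12 with the pml-/- label. The first ended without untreated array 2 or 4 (0.31 and 0.33, adjusted p = 0.0574 and 0.0839), the second without untreated array 3 or 4 (0.41 and 0.43, adjusted p = 0.0691 and 0.0514). PLZF/RARA marrow gave 0.20 ± 0.14 and 0.21 ± 0.14, not called. Epha2, an ephrin receptor kinase, was called in no RA comparison, with differences from -0.51 to 0.44.

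Markers of marrow cell types moved with some of these results. In transgenic PML/RARA marrow at 12 h, where 14 members were called, 5 of 6 erythroid markers rose with RA (median difference 0.88), and their mean level ran from 7.98 to 8.92 in untreated and from 8.35 to 10.14 in RA arrays. At 6 h there 1 of 6 was called, Klf1 (0.77). Alas2, Ermap, Rhag and Slc4a1 had differences of 0.74 to 1.19 (unadjusted limma p of 0.00822 to 0.0378), and Epor 0.29 (0.150). No erythroid marker was called in the change from 6 h to 12 h in this marrow. In PLZF/RARA and both viral comparisons 0 of 6 were called by limma, with at most 1 of 6 at an unadjusted p below 0.05. Of 6 monocyte and macrophage markers 1 was called lower at 6 h and 1 higher at 12 h with transgenic PML/RARA and 1 higher at 12 h with PLZF/RARA, and of 6 B cell and 6 T and NK cell markers at most 1 was called in any RA comparison. Promyelocyte markers moved in both directions: Prtn3 rose in 7 of the 8 comparisons, by 0.65 to 2.17, and was not called with the viral WT label at 12 h. Elane rose at 12 h with transgenic PML/RARA (0.51) and with the pml-/- label (0.74), where Ctsg fell (-0.23 and -0.25). Mpo fell with transgenic PML/RARA at 12 h (-0.16), and Ms4a3 at 6 h there (-0.60) and with the pml-/- label (-0.63). Their part in the members' results was not tested. At 6 h the sign of every member called was the same within each batch: 13 of 13 in batches 1 and 2 with transgenic PML/RARA, 9 of 9 in batches 3 and 4 with the viral WT label and 10 of 10 with the pml-/- label. These members were called on the same arrays, so agreement in sign is no independent check. Within batches 1 and 2 alone, 6 and 9 of the 13 were called. Within batches 3 and 4 alone it was 1 and 4 of the 9, and 4 and 5 of the 10.

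The question of whether RA changed the member genes differently with the 2 fusions was put to the difference between RA effects. This was PML/RARA minus PLZF/RARA, averaged over both times, and it uses the same arrays as the comparisons above. RA effects of 6 of 35 members differed, all higher with PML/RARA, against 7.42% of all genes called in either direction and 3.35% called higher. Sesn2 differed most, by 0.95 ± 0.16 (95% interval 0.62 to 1.27, adjusted p = 0.000189). Btg2 differed by 0.63 ± 0.18 (adjusted p = 0.0279), Phlda3 by 0.50 ± 0.11 (adjusted p = 0.00367), Cd82 by 0.45 ± 0.12 (adjusted p = 0.0182), Sesn1 by 0.43 ± 0.13 (adjusted p = 0.0384) and Mdm2 by 0.39 ± 0.09 (adjusted p = 0.00437). At 1.5-fold or more 2 of the 6 remained called, Sesn2 and Btg2, against 2.79% of all genes. For Mdm2, Sesn1 and Cd82 this was a rise with PML/RARA and no call with PLZF/RARA. For Phlda3 it was a smaller fall with PML/RARA. Before treatment, as given below, Sesn2, Phlda3 and Sesn1 were lower with PML/RARA and Cd82 was higher, while Mdm2 and Btg2 were not called. The same untreated arrays enter both kinds of difference. The part of these starting levels in the differences between RA effects was not tested. By contrast, the effects on Gadd45a differed by 0.02, with an interval from -0.26 to 0.31, those on Pmaip1 by 0.04 (-0.25 to 0.32) and those on Ddit4 by 0.41 (-0.29 to 1.11), so differences up to those bounds are compatible with these arrays. At 6 h alone, where 1.51% of all genes were called, Mdm2 was the one member called (0.52 ± 0.13), and at 12 h alone (2.93%) Trp53inp1 (1.07 ± 0.27), Sesn2, Cd82 and Phlda3 were higher and Rrm2b lower with PML/RARA (-0.53 ± 0.15). The calls of Mdm2, Phlda3 and Sesn2 held whichever array was left out. That of Cd82 ended without untreated PLZF/RARA array 1 at 6 h or at 12 h (0.42 and 0.39, adjusted p = 0.0712 and 0.0588), that of Btg2 without any 1 of 4 untreated arrays (0.54 to 0.65, adjusted p up to 0.155), and that of Sesn1 without any 1 of 13 arrays (0.29 to 0.43, adjusted p up to 0.188).

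Comparing the viral leukaemias labelled WT and pml-/- asks whether the RA effect on these genes depends on the background. Of the 35 members 0 were called by limma, against 1.13% of all genes, and 4 had an unadjusted p below 0.05. Those were Trp53inp1 (WT minus pml-/-, -0.41 ± 0.15, adjusted p = 0.278, 95% interval -0.70 to -0.11), Cd82 (-0.38 ± 0.15, adjusted p = 0.360), Ddb2 (0.26 ± 0.10, adjusted p = 0.396) and Sesn1 (0.34 ± 0.16, adjusted p = 0.604). For Mdm2 the difference was -0.17 with an interval from -0.37 to 0.03, for Gadd45a 0.06 (-0.24 to 0.36), for Pmaip1 -0.26 (-0.53 to 0.01) and for Ddit4 -0.44 (-1.54 to 0.66). A p above the threshold does not show that the backgrounds act alike, and differences within these intervals are compatible with the arrays. These values rest on a background label that the Pml probe set did not check.

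**Figure D4:**
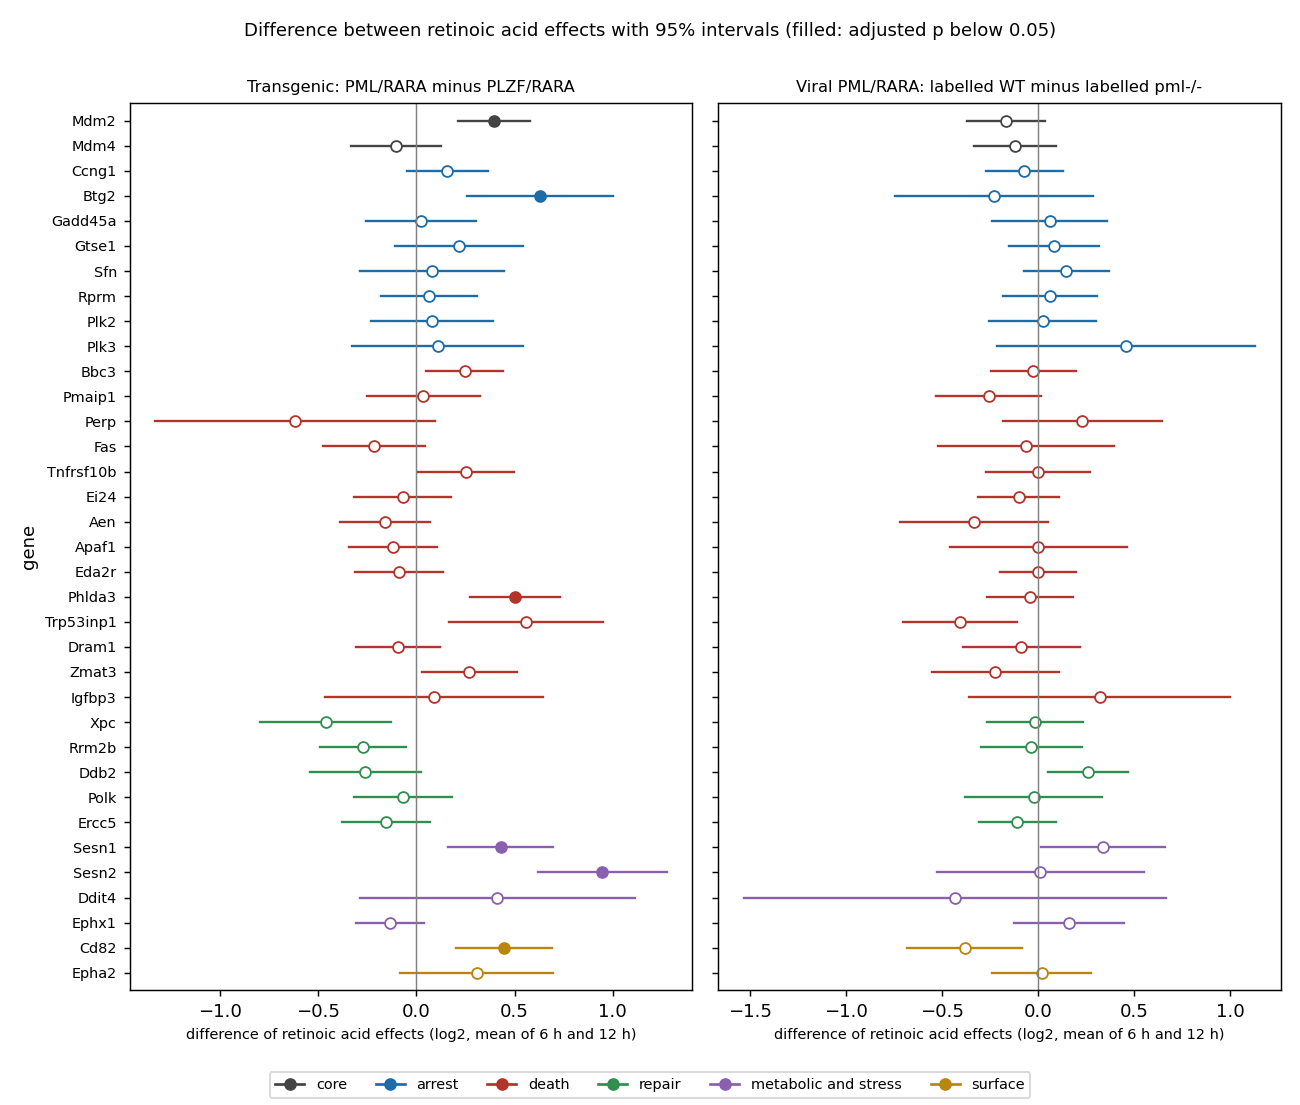
Points are the differences between RA effects (log2, horizontal axes) of each member, in the transgenic model (left, PML/RARA minus PLZF/RARA) and the viral one (right, labelled WT minus labelled pml-/-), with 95% intervals, filled where the adjusted p is below 0.05. On the left 6 filled points lie to the right of 0, and on the right no point is filled.

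RA effects at 12 h were set against those at 6 h within each leukaemia type, and 0 of the 35 members was called by limma in any of the 4. Of all genes 0.231% were called with transgenic PML/RARA, 0.0251% with PLZF/RARA, 0.00% with the viral WT label and 0.0351% with the pml-/- label, and 5, 3, 0 and 8 members had an unadjusted p below 0.05. The smallest adjusted p was that of Cd82 in transgenic PML/RARA marrow, whose difference was larger at 12 h by 0.58 ± 0.14 (adjusted p = 0.0749). Trp53inp1 was larger by 0.66 ± 0.23 there (adjusted p = 0.293), and Epha2 pointed the other way (-0.76 ± 0.22, adjusted p = 0.178).

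Many members also differed before treatment. Untreated PML/RARA minus untreated PLZF/RARA marrow gave 4 members higher and 9 lower, against 25.3% of all genes called (6 members and 9.0% at 1.5-fold or more). Perp was lower in PML/RARA marrow, with a difference of -2.46 ± 0.29 (5.5-fold), at 7.73 to 8.0 at 6 h against 11.03 and 10.73 in PLZF/RARA marrow. At 12 h the PML/RARA arrays were spread more widely, at 8.03, 7.98, 10.11 and 9.65, all below the 11.14 and 10.84 of PLZF/RARA marrow. Sesn2 was lower too (-1.27 ± 0.13, at 7.43 to 7.84 over both times against 8.79 to 9.20), as was Sfn, a G2 checkpoint gene (-0.86 ± 0.15). Dram1 was higher by 1.14 ± 0.09, at 9.52 to 10.04 against 8.64 to 8.74. Arrays of the 2 fusions did not overlap for Perp, Sesn2 or Dram1. Smaller differences were found for Gtse1 and Phlda3 (-0.60 each), Sesn1 (-0.53), Ccng1 (-0.40), Tnfrsf10b (-0.39) and Bbc3 (-0.35), which were lower with PML/RARA, and for Gadd45a (0.40), Cd82 (0.34) and Ephx1 (0.21), which were higher. The calls of Gadd45a, Cd82 and Ephx1 ended when 1 untreated array was left out (for Gadd45a PLZF/RARA 12 h array 1, 0.33 and adjusted p = 0.0792; for Cd82 PLZF/RARA array 2 at 6 h or 12 h, 0.32 and 0.29; for Ephx1 any 1 of 6 arrays, 0.15 to 0.21). All 6 erythroid markers measured were higher in untreated PML/RARA marrow, by 0.78 to 3.46, as were 4 of 5 promyelocyte markers (0.38 to 1.05) and 2 of 6 B cell markers (Cd79a 0.93 and Ebf1 1.11). Of 6 T and NK cell markers 4 were higher and Nkg7 lower (-0.93), and of 6 monocyte and macrophage markers 4 were higher and Adgre1 lower (-1.79). Nkg7 lay at percentile 99.3 among all genes by mean level, against 28.5 to 55.6 for the other T and NK cell markers. Which cells its signal came from was not tested. The part of these marker lists in the differences between untreated levels was not tested either.

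Between untreated viral leukaemias, labelled WT minus labelled pml-/-, 11 members were higher and 3 lower, against 20.8% of all genes (9 members and 9.86% at 12 h alone). Sesn1 was lower with the WT label (-1.93 ± 0.13, 3.82-fold, adjusted p = 1.51e-13), at 7.42, 7.97, 8.08 and 7.87 at 6 h and 8.20 and 7.81 at 12 h, against 9.50, 9.71, 10.03 and 9.95, and 9.83 and 9.99. Trp53inp1 was higher by 1.74 ± 0.12 (3.34-fold), at 11.16 to 12.00 against 9.44 to 10.14. For both genes the untreated arrays of the backgrounds did not overlap. Perp (-1.45 ± 0.17) and Xpc (-0.73 ± 0.10) were the other members that were lower. Higher were Zmat3 (1.02 ± 0.13), Plk3 (0.92 ± 0.27), Sesn2 (0.89 ± 0.22), Ddb2 (0.89 ± 0.08), Cd82 (0.68 ± 0.12), Pmaip1 (0.59 ± 0.11), Phlda3 (0.45 ± 0.09), Gtse1 (0.43 ± 0.09), Ccng1 (0.41 ± 0.08) and Mdm2 (0.29 ± 0.08). The Plk3 call ended without WT 12 h array 2 or pml-/- 12 h array 1 (0.89 and 0.87, adjusted p = 0.0501 and 0.0535). Promyelocyte markers also differed between these backgrounds, with Ms4a3 higher with the WT label by 5.77 ± 0.18, Elane and Prtn3 higher by 1.00 and 1.17, and Mpo and Ctsg lower (-0.19 and -0.32). Of the other lists, 4 of 6 monocyte and macrophage markers were higher with the WT label and 2 of 6 B cell markers lower, with array means of 9.39 to 9.61 against 8.43 to 8.91 for the former. Of 6 T and NK cell markers Cd3g was higher (0.37) and Cd4 and Nkg7 lower (-0.44 and -0.31). Their part in the members' differences was not tested.

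**Figure D5:**
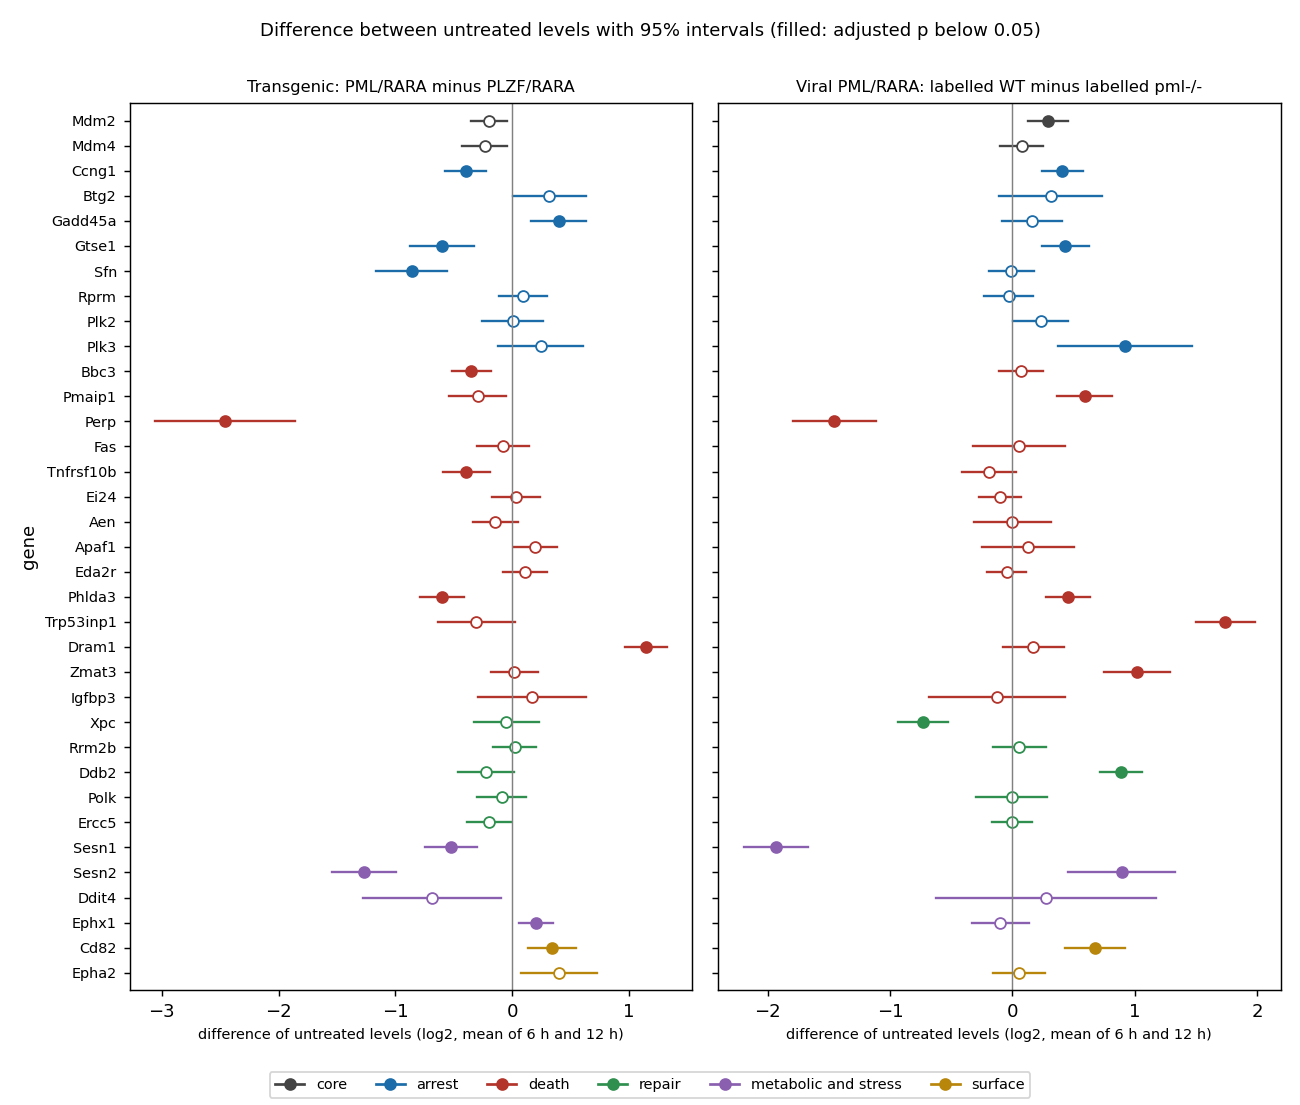
Points are differences between untreated levels (log2, horizontal axes) of each member, transgenic PML/RARA minus PLZF/RARA on the left and viral labelled WT minus labelled pml-/- on the right, with 95% intervals, filled where the adjusted p is below 0.05. Perp lies farthest left in the transgenic panel at -2.46, and in the viral panel Sesn1 at -1.93 and Trp53inp1 at 1.74 lie at opposite ends.

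Genes that act on p53 were counted from a list of 23 regulators, 22 of them measured. In transgenic PML/RARA marrow 3 were higher and 4 lower at 6 h, and 3 higher and 6 lower at 12 h (14.3% and 21.6% of all genes called). With the viral WT label 5 were higher and 1 lower at 6 h and 1 and 1 at 12 h (9.88% and 6.10%), and with the pml-/- label 3 and 4 at 6 h and 1 and 0 at 12 h (11.4% and 6.05%). In PLZF/RARA marrow 0 were called at 6 h by limma (1 at an unadjusted p below 0.05) and 1, lower, at 12 h (2.20% and 4.03%). Pml, the scaffold of nuclear bodies and an interferon-induced gene, had the strongest statistic and rose in transgenic PML/RARA marrow by 1.18 ± 0.11 and 1.17 ± 0.11, against 0.30 ± 0.16 and 0.38 ± 0.16, not called, in PLZF/RARA marrow. The effect differed between the fusions by 0.84 ± 0.14 (adjusted p = 0.000113). The position of the Pml probes is not known, and PML/RARA, unlike PLZF/RARA, carries PML sequence. This difference therefore cannot be assigned to the Pml gene alone. The other 3 regulators with the strongest RA statistics were kinases of the DNA damage response, and their calls in transgenic PML/RARA marrow were lower. Atm, which senses breaks, gave -0.58 and -0.92 at 6 h and 12 h, Chek1, which stalls the cycle, -0.80 and -0.88, and Atr, which senses stalled forks, -0.85 at 12 h and -0.47, not called, at 6 h (adjusted p = 0.0524). The effects on these 3 also differed between the fusions, by -0.69, -0.81 and -0.75 (adjusted p = 0.00248, 0.00144 and 0.0147). Atm fell with the viral WT label as well (-0.73 and -1.02) and with the pml-/- label at 6 h (-0.73), as did Chek1 there (-0.67).

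A further list of 16 p53 targets, 15 of them measured, had calls in both directions. It gave 1 higher and 3 lower in transgenic PML/RARA marrow at 6 h and 1 and 1 at 12 h (14.3% and 21.6% of all genes called), 3 and 0 with the viral WT label at 6 h and 1 and 1 at 12 h (9.88% and 6.10%), and 1 and 1, then 1 and 0, with the pml-/- label (11.4% and 6.05%). In PLZF/RARA marrow 0 were called by limma at either time, with 2 and 4 at an unadjusted p below 0.05. Lif, a cytokine of the interleukin 6 family, rose with the viral WT label by 1.46 ± 0.26 and 1.66 ± 0.36, and Sulf2, an extracellular sulfatase, rose in transgenic PML/RARA marrow by 0.33 ± 0.11 and 0.46 ± 0.11 and with the pml-/- label by 0.62 ± 0.15 and 0.85 ± 0.21. Slc19a2, a thiamine transporter, fell in transgenic PML/RARA marrow at 6 h, with a difference of -0.66 ± 0.12, as did Pidd1, which nucleates a caspase 2 complex (-0.53 ± 0.12).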

How the data were processed

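The authors deposited 1 table of log2 probe set values for all 72 arrays, made with RMA in the affy package per the submitters' processing notes, which give no versions; depth is not defined for arrays, and the number of arrays limits the precision. The deposited log2 values were used as they stand. Of 35556 probe sets, the annotation lists 23410, and the others were left out. Of those listed, 21789 carry 1 gene symbol, and 1621 carry several and were left out. Each gene was represented by its brightest probe set, which gave 19938 genes. Each model's 36 arrays were fitted apart with limma 3.58.1 in R 4.3.3 (1 coefficient per group, the labelled batch as an additive term, default empirical Bayes prior, two-sided tests, Benjamini-Hochberg over all genes, threshold 0.05), and the fit was tested on simulated data. Groups were taken from the labels. Arrays are numbered within a group only to name them, and the numbers pair nothing. The members and lists were chosen with earlier results of these data known. By the naming rule, members called in an RA comparison or a difference are given with their levels and the others by range, and the 4 genes with the strongest RA statistic are named from each of the regulator and further target lists. Promoter windows come from RefSeq. Alternatives covered quantile normalization, dim genes, probe set averaging, the batch term, single batches, pooled untreated arrays, smaller fits, the prior, single times, a fold threshold and leaving out each array.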

Additional observations from a re-analysis of the deposited data

Results flagged for a closer look

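Array values of 23 members were checked in every group of 4 to 10 arrays, which made 276 gene and group pairs, and 14 held an array that lay apart from the rest of its group by Dixon's test; chance alone gives about 1 in 20. In PLZF/RARA marrow with RA at 12 h, Apaf1 was highest at 11.09 (next 10.75), Bbc3 at 7.11 (next 6.85) and Trp53inp1 at 10.82 (next 10.22), and Plk3 was lowest at 7.17 (next 7.48) and Xpc at 9.04 (next 9.54). The Apaf1 and Trp53inp1 values belong to the same array, RA array 2, and those of Bbc3 and Xpc to RA array 4. At 6 h Apaf1 was lowest at 10.30 (next 10.79) in the same leukaemia.

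In transgenic PML/RARA marrow at 6 h, Mdm2 was lowest at 9.57 (next 9.77) on an RA array, and Apaf1 at 10.98 (next 10.70) and Phlda3 at 7.10 (next 7.01) were highest on untreated arrays. With the viral WT label, Fas was highest at 7.43 (next 7.15) with RA at 12 h, and Gadd45a at 7.87 (next 7.65) among untreated 6 h arrays. Among untreated 6 h arrays labelled pml-/-, Ddit4 was lowest at 6.81 (next 7.43), Igfbp3 highest at 7.90 (next 6.91) and Mdm2 lowest at 9.23 (next 9.51).

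The RA effects of 6 members differed between PML/RARA and PLZF/RARA in the transgenic model, by the limma test of the difference itself. These were Sesn2 (0.95), Btg2 (0.63), Phlda3 (0.50), Cd82 (0.45), Sesn1 (0.43) and Mdm2 (0.39).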

How the results depend on the processing

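Of 99 calls of a member in a comparison, 35 held under every alternative, 57 held when any 1 array was left out, and 0 changed direction. Of the 66 RA calls, 18 held under every alternative. No paired analysis was possible because every title carries the same replicate number, so the labels give no numbers that pair arrays. Numbers of members called moved as follows. With only the groups compared in the fit, 0 and 2 were called with PLZF/RARA at 6 h and 12 h, and 2 and 3 at 12 h with the viral WT and pml-/- labels. In batch 1 alone 6 were called with transgenic PML/RARA at 6 h. In batch 3 alone 1 and 3 were called with the viral WT label at 6 h and 12 h, and 4 with the pml-/- label at 6 h. In batch 4 alone it was 5 with each label at 6 h. Without a batch term 3 were called with the WT label at 12 h. With untreated arrays of both times pooled, 14 and 10 were called at 12 h with the WT and pml-/- labels. A trended, robust prior called 1 change between times in transgenic PML/RARA marrow. At single times, 1 member differed between the fusions at 6 h, and 9 untreated levels between the viral backgrounds at 12 h. Asking for 1.5-fold left 7 and 8 with transgenic PML/RARA, 2 with PLZF/RARA at 12 h, 4 and 3 with the WT label, 6 and 3 with the pml-/- label, 2 differences between the fusions and 6 untreated ones.

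Leaving out 1 array at a time gave 9 to 13 and 11 to 15 calls with transgenic PML/RARA at 6 h and 12 h, 0 to 5 and 2 to 7 with PLZF/RARA, 6 to 11 and 0 to 6 with the viral WT label, and 7 to 12 and 3 to 7 with the pml-/- label. The difference between the fusions ranged from 3 to 7, untreated differences from 11 to 17 and 13 to 14, and changes between times in transgenic PML/RARA marrow from 0 to 1. With 2 untreated arrays in a group, 1 array decides many calls.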
